A study of Homo sapiens with 8 samples.

Results

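The BCL2 family is the group of proteins that sets whether the outer membrane of the mitochondrion stays intact or is opened to start apoptosis. Its messenger RNAs were described here in DND41, an established human cell line of T-ALL, the acute lymphoblastic leukemia of the T lineage. The members were 10 genes chosen by symbol: the anti-apoptotic BCL2, BCL2L1 and MCL1, the pore-forming effectors BAX and BAK1, and the BH3-only genes BCL2L11, BBC3, PMAIP1, BID and BAD. All 10 were found among the 18133 genes of the table, and all 10 were among the 13885 genes tested, those whose mean reached 10 normalized counts. The rule used gene symbols alone.

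All cells carried a short hairpin RNA (shRNA) that doxycycline switches on, and all were given doxycycline for 72 h, so that the control cells received the drug as well. The SIRT1 hairpins, named sh1 and sh3 in the labels, were each measured in 3 libraries (A, B and C), and the control hairpin in 2 (A and C). SIRT1 is a nuclear NAD-dependent protein deacetylase. The labels do not say what the numbers of the hairpins stand for, nor whether the libraries of a group came from separate cultures beyond being plated as replicates, so the spread between them may be technical. The labels of the library sh3 C contradict each other: the title and the genotype say SIRT1 hairpin, and the description says control hairpin. It was kept with sh3, and results that rest on it are also given without it.

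The proteins of this family bind each other. Anti-apoptotic members hold effectors and BH3-only members in check, BH3-only members are induced or released by stress and block the anti-apoptotic members or activate the effectors, and active BAX and BAK1 open the outer membrane so that cytochrome c escapes and caspases are switched on. Many T-ALL cells depend on BCL2 or on BCL-XL, the main product of BCL2L1, and thymocytes at successive stages rely on different anti-apoptotic members. Much of the control of the family acts on the proteins, by phosphorylation, degradation and binding, which messenger RNA levels do not show.

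SIRT1 (10:67884669-67918390 on GRCh38) measured 1745 and 1920 normalized counts in control libraries A and C, 1259, 1312 and 1329 with sh1, and 1099, 1217 and 1179 with sh3 A, B and C. All 6 hairpin libraries, sh3 C included, lay below both controls. SIRT1 fell by 0.49 ± 0.070 with sh1 (log2 scale, SE, limma adjusted p = 0.00290), to 0.710 of control, and fell by 0.65 ± 0.070 with sh3 (adjusted p = 0.000144), to 0.636 of control, and the difference between the hairpins was -0.16 ± 0.063 (adjusted p = 0.135). Without control C the fall with sh1 was -0.43 (adjusted p = 0.0506). Over all 18133 genes, sh3 C had Spearman coefficients of 0.987 and 0.989 with the other sh3 libraries and of 0.984 and 0.986 with the controls. Normalized counts summed to 33087820 to 34072666 per library. T-cell receptor complex genes marked the line (CD3E 24188 and 26148 normalized counts in the controls), while CD2 stood at 56.2 and 63.1 there and the 5 myeloid markers together never passed 63.4 in any library. The 5 markers listed for adherent or stromal cells, of which 2 were tested, together measured 24387 to 26106 over the 8 libraries. The untested ones had a mean under 10, so nearly all of this sum came from the 2 tested genes. It does not stand for the list as a whole. CD79A, a B-cell receptor gene, was high in this line, at 23989 and 25708 in the controls.

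With sh3 BBC3 and BCL2L11 were called, though BCL2L11 lost its call in 12 of 18 alternative analyses. Promoters are shown for both, and for BAX, which was not called but holds the most E-boxes among the members. Each is a window of 300 bases from RefSeq on GRCh38.p14, with 250 bases before the start site and 50 after it, printed 5′ to 3′ on the strand of the gene. Capitals mark the letters GTAAACA, the core bound by FOXO factors, and CACGTG, the E-box bound by MYC and its relatives, on either strand. The windows are chr19:47232618-47232917 on the minus strand for BBC3, chr2:111120664-111120963 on the plus strand for BCL2L11 and chr19:48954625-48954924 on the plus strand for BAX.
BBC3: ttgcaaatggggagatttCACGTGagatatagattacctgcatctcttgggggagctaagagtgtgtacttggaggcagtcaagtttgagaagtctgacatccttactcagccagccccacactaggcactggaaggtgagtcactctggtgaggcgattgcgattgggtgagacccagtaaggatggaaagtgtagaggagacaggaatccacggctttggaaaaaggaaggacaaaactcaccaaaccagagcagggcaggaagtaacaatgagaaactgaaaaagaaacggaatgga
BCL2L11: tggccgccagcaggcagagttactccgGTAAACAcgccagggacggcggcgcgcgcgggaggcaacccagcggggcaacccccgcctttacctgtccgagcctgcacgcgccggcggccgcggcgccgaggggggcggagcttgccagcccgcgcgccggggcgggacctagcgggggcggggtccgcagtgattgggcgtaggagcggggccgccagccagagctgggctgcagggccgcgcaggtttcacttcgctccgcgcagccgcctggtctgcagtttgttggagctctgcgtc
BAX: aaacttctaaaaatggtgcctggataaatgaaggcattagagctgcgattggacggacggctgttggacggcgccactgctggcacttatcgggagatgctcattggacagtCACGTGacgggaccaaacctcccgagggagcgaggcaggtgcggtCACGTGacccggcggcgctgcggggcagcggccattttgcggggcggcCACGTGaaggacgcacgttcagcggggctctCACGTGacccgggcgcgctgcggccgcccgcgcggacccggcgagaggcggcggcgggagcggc

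The BBC3 window held 1 E-box, 232 bases before the start site, and no FOXO core. The BCL2L11 window held 1 FOXO core, 223 bases before the start site, and no E-box. The BAX window held 4 E-boxes, at 138, 93, 45 and 14 bases before the start site. Among 35116 promoter windows of the same length in the table, 3.42% held GTAAACA and 7.26% held CACGTG on either strand. The only other member with an E-box was BID, in 2 of its 5 windows, which overlap and hold the same E-box. No other member held a FOXO core. CCAAT, the box bound by NF-Y, occurred in 34.6% of all windows and in those of BAX, BAK1, BCL2L11, BBC3 and BAD. Of the 10 members, 9 had a window in the table, 15 windows in all, and MCL1 had none. These matches describe letters in a window and are no measurement of binding.

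Per kilobase of transcript at the median transcript length, BAX, BCL2L1 and PMAIP1 were the most abundant members in the control libraries and BBC3 the least. Levels between genes were compared as normalized counts divided by the median length of the coding transcripts of each gene in GENCODE 29. On that scale BAX stood at 3200 ± 88.2 (SD, n = 2), BCL2L1 at 3141 ± 66.9 and PMAIP1 at 3111 ± 99.4, and these neighbours lay within 1 SD of each other. MCL1 followed at 1994 ± 39.1 and BCL2 at 1542.5 ± 151. BAD at 1103 ± 44.3 and BID at 1053 ± 162 were within their spread of each other. The lowest members were BAK1 at 676 ± 20.5, BCL2L11 at 411 ± 17.1 and BBC3 at 224 ± 24.1.

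The order depends on which transcript a gene uses. With the longest and the shortest coding transcript in place of the median, the control mean ran from 394 to 8483 per kilobase for BCL2L11, from 839 to 4995 for BID and from 1446 to 4534 for BAX. For MCL1 it ran from 1839 to 6515, so its place behind BAX, BCL2L1 and PMAIP1 depends on the transcript. For BCL2L1 it ran only from 3102 to 3398, for BBC3 from 205 to 279, and for BAK1 from 653 to 678. BBC3, the gene for PUMA, was thus the least abundant member under each of these lengths. Transcript use was not measured here, since the table gives 1 value per gene.

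**Figure D1:**
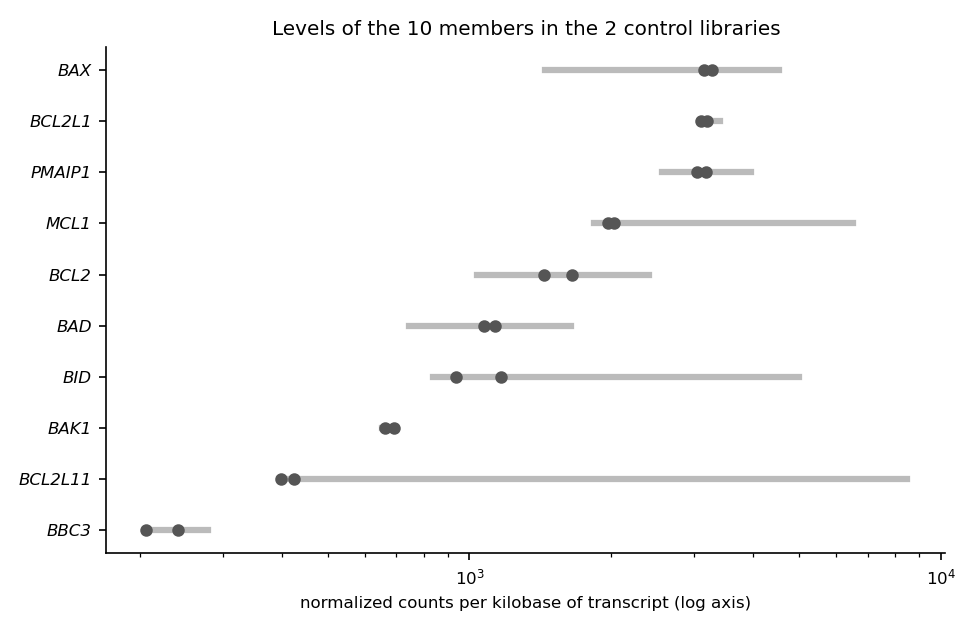
Levels of the 10 members in the 2 control libraries, in normalized counts per kilobase of transcript on a log axis. Points are the 2 libraries at the median coding transcript length, and grey bars run from the level at the longest to the level at the shortest coding transcript. BAX, BCL2L1 and PMAIP1 lead at the median length, BBC3 is lowest, and the bar of BCL2L11 spans 394 to 8483.

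Against control, the mean of both SIRT1 hairpins left the family without a called change. At an adjusted p under 0.05, 0 of the 10 members were called by limma, against 12.7% of all 13885 genes tested. In a list of 10 genes this count lies near that share. At an unadjusted p under 0.05 there were 3 members, against 28.6% of all genes. The median log2 difference of the members was -0.020 and that of all genes tested -0.0022. The members nearest to the threshold were PMAIP1 and BAD. In bulk libraries fewer cells of a type and less RNA per cell cannot be told apart, and this holds for every value below.

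With sh1 alone, 0 of 10 members were called, against 6.31% of all genes, and 4 members had an unadjusted p under 0.05, against 22.3% of all genes. With sh3 alone, 2 of 10 were called, against 18.6% of all genes: BBC3 rose and BCL2L11 fell. Between sh3 and sh1, 4 of 10 were called, against 11.4% of all genes: BCL2, MCL1 and BBC3 were higher with sh3 and BCL2L1 was lower. The first 3 of these comparisons share the 2 control libraries, and the last shares its libraries with the others. Without sh3 C the count with sh3 was 1, BBC3, and the count between the hairpins was again 4, the same genes.

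**Figure D2:**
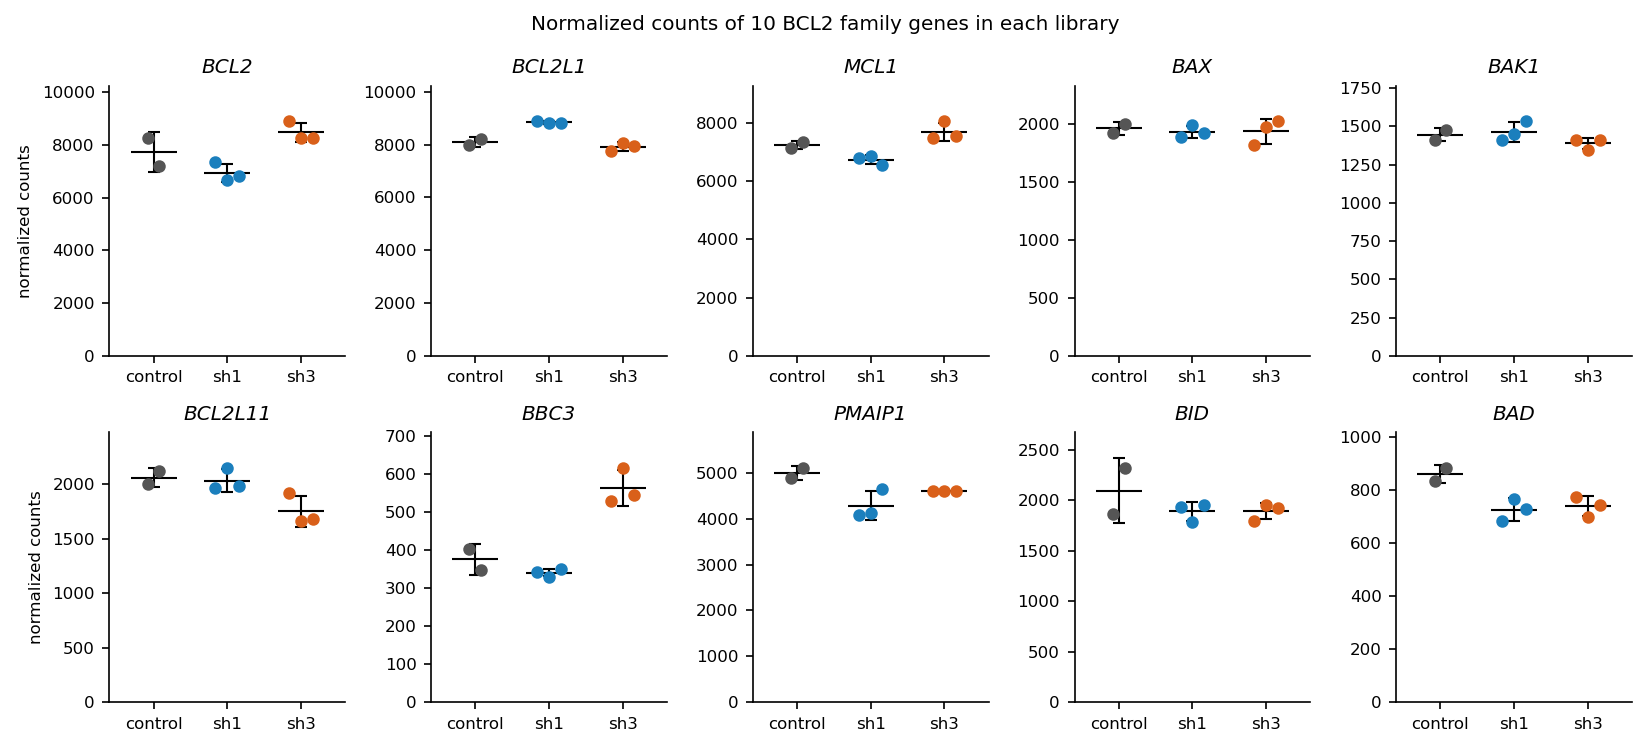
Normalized counts of the 10 members in each library, with a separate axis from 0 for each gene. Points are libraries (control n = 2, sh1 n = 3, sh3 n = 3), long lines the group mean and whiskers the SD. The sh3 points of BBC3 stand above all others, the sh1 points of BCL2L1 stand above all others, and the points of PMAIP1 and BAD in all 6 hairpin libraries lie below both controls.

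The anti-apoptotic genes moved apart between the hairpins. BCL2 (18:63123346-63320128, minus strand), the founder of the family and the target of venetoclax, measured 8263 and 7195 normalized counts in control A and C. It measured 7340.2, 6688 and 6826 with sh1 and 8899.7, 8252 and 8263 with sh3. The sh1 and sh3 values did not overlap, and the controls spanned the gap between them, with control A at the level of sh3 and control C among sh1. BCL2 was higher with sh3 than with sh1 by 0.29 ± 0.059 on the log2 scale (adjusted p = 0.00993), or 1.22-fold. Against control the differences were -0.15 ± 0.066 with sh1 (adjusted p = 0.209) and 0.13 ± 0.066 with sh3 (adjusted p = 0.185).

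BCL2L1 (20:31664452-31723989, minus strand) encodes BCL-XL and a shorter pro-apoptotic isoform, which a value per gene does not separate. It measured 7975 and 8219 normalized counts in the controls, 8885, 8828 and 8801 with sh1, and 7748, 8063 and 7953 with sh3. All 3 sh1 libraries stood above every other library, while sh3 and control overlapped. Its direction between the hairpins was opposite to that of BCL2, at -0.16 ± 0.038 for sh3 against sh1 (adjusted p = 0.0204). The difference of sh1 from control was 0.13 ± 0.043 (adjusted p = 0.107) and that of sh3 from control -0.032 ± 0.043 (adjusted p = 0.657).

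MCL1 (1:150574551-150579738, minus strand) encodes a short-lived guard that binds BIM, NOXA and BAK. It measured 7131 and 7332 normalized counts in the controls, 6786, 6854 and 6551 with sh1, and 7469, 8051 and 7546 with sh3. The groups did not overlap: every sh1 library lay below both controls and every sh3 library above them. The difference between the hairpins was 0.19 ± 0.044 (adjusted p = 0.0161), or 1.14-fold. Neither hairpin passed the threshold against control, at -0.10 ± 0.049 with sh1 (adjusted p = 0.239) and 0.088 ± 0.049 with sh3 (adjusted p = 0.245).

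Added together, the normalized counts of the 3 anti-apoptotic genes differed little in size, though every sh3 library lay above every other library. The sum was 23370 and 22746 in control A and C, 22179 to 23011 with sh1 and 23763 to 24366 with sh3. BCL2L1 made up 34.1% and 36.1% of it in the controls, 38.6% to 39.7% with sh1 and 32.1% to 33.5% with sh3. The share of BCL2 was 35.4% and 31.6% in the controls, 29.9% to 31.9% with sh1 and 33.9% to 36.9% with sh3. The shares are of normalized counts and not per length, and they follow from the values of the 3 genes above, so they carry no test of their own.

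The calls of these 3 genes between the hairpins were lost without a mean-variance trend, at an adjusted p of 0.0672 for BCL2, 0.0678 for BCL2L1 and 0.0674 for MCL1. BCL2L1 was also lost without sh1 B (0.0689), sh3 A (0.0930) or sh3 B (0.0540), and MCL1 without sh1 C (0.0535) or sh3 B (0.0831). Without sh3 C the differences were 0.30, -0.16 and 0.20 for BCL2, BCL2L1 and MCL1, with adjusted p of 0.0243, 0.0490 and 0.0334.

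The effectors BAX and BAK1 were not called in any comparison. BAX (19:48954815-48961798, plus strand) moves from the cytosol to the mitochondrion when activated. It ran from 1817 to 2024.5 normalized counts over the 8 libraries, with means of 1963 ± 54.1 (SD, n = 2) in control, 1934 ± 52.7 (n = 3) with sh1 and 1938 ± 107.8 (n = 3) with sh3. The 3 groups overlapped. Its 95% intervals against control were -0.16 to 0.12 on the log2 scale with sh1 and -0.16 to 0.12 with sh3, so larger changes lie outside them.

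BAK1 (6:33572547-33580293, minus strand) encodes BAK, which sits on the outer membrane already. It ran from 1346 to 1533, with means of 1445 ± 43.8 in control, 1463 ± 63.6 with sh1 and 1388 ± 37.0 with sh3. The sh3 libraries, at 1412, 1346 and 1408, lay just below both controls, at 1414 and 1476, and the difference was -0.057 ± 0.063 (adjusted p = 0.581). The interval between the hairpins was -0.20 to 0.049. BAK1 is uncertain, since it has the processed pseudogenes BAK1P1 and BAK1P2 and could have shared reads with them.

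BBC3 moved the most among the members. BBC3 (19:47220822-47232766, minus strand) encodes PUMA, a BH3-only protein that binds all anti-apoptotic members and is induced by FOXO3 and endoplasmic reticulum stress factors. It measured 405 and 347 normalized counts in control A and C and 344, 331 and 350.4 with sh1 A, B and C. With sh3 A, B and C it measured 531, 617 and 545. The 3 sh3 libraries stood above all 5 others, and sh1 overlapped the controls.

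With sh3 BBC3 rose by 0.59 ± 0.105 in log2 (SE, adjusted p = 0.00357), to 1.5 times control, with a 95% interval of 0.35 to 0.82. With sh1 the difference was -0.13 ± 0.105 (adjusted p = 0.496), with an interval of -0.36 to 0.096. The hairpins differed from each other by 0.72 ± 0.094 (adjusted p = 0.000547), 1.65-fold, and all 18 alternative analyses kept that difference past the threshold. The rise against control was kept in 17 of 18 and lost without control C, at 0.48 (adjusted p = 0.0537). Without sh3 C it was 0.61 (adjusted p = 0.00898).

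BCL2L11 (2:111119378-111168447, plus strand) encodes BIM, the BH3-only protein that drives the death of developing and cytokine-starved T cells. It measured 2001 and 2122 normalized counts in control A and C, 1969.6, 2154 and 1984 with sh1, and 1917, 1661 and 1686 with sh3. The sh3 libraries lay below all 5 others, and sh1 overlapped the controls. With sh3 BCL2L11 fell by 0.23 ± 0.074 in log2 (adjusted p = 0.0489), and the difference between the hairpins was -0.22 ± 0.067 (adjusted p = 0.0594). With sh1 the difference from control was -0.019 ± 0.074 (adjusted p = 0.919).

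The fall of BCL2L11 sat at the threshold and was lost in 12 of 18 alternatives, among them leaving out sh1 B (adjusted p = 0.0554), sh1 C (0.0535), sh3 B (0.147), sh3 C (0.121), control A (0.0877) or control C (0.274). Its value ran from -0.30 to -0.19 over the alternatives. MIR4435-2HG, a long noncoding gene on the other strand, overlaps the locus.

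PMAIP1 (18:59899948-59904306, plus strand) encodes NOXA, which binds MCL1 and promotes its degradation. It measured 4880.4 and 5106 normalized counts in the controls, 4073, 4129 and 4645 with sh1 A, B and C, and 4595, 4591 and 4603 with sh3. All 6 hairpin libraries lay below both controls, and sh1 C stood with the sh3 libraries. The difference from control was -0.22 ± 0.060 with sh1 (adjusted p = 0.0503), -0.12 ± 0.060 with sh3 (adjusted p = 0.197) and -0.17 ± 0.054 for the mean of the hairpins (adjusted p = 0.0582). None of these passed the threshold. The first passed it without sh1 C, at -0.28 (adjusted p = 0.0139), and the third at -0.20 (adjusted p = 0.0130).

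BAD (11:64269830-64284704, minus strand) encodes a BH3-only protein that growth factor signalling holds inactive by phosphorylation. It measured 836 and 885 normalized counts in the controls, 685, 769 and 728 with sh1, and 773, 698 and 746 with sh3. BAD was the other member with all 6 hairpin libraries below both controls, and no member had all 6 above them. Over all genes tested, 11.4% had all 6 below both controls and 11.9% had all 6 above. The difference was -0.23 ± 0.073 for the mean of the hairpins (adjusted p = 0.0593), -0.24 ± 0.082 with sh1 (adjusted p = 0.107) and -0.22 ± 0.082 with sh3 (adjusted p = 0.0853). It passed the threshold in none of the 18 alternatives of any comparison. BAD overlaps the coding gene GPR137 on the other strand, and the use of strand in the counting was not given in the sources used here.

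BID (22:17734138-17774770, minus strand) links death receptors to mitochondria, since caspase 8 cuts it into its active form. It measured 1865 and 2321 normalized counts in the controls, 1929.7, 1779 and 1955 with sh1, and 1797, 1955 and 1925 with sh3. The controls were far apart, and control A lay within the range of both hairpins. The difference for the mean of the hairpins was -0.14 ± 0.078 (adjusted p = 0.271), with an interval of -0.31 to 0.033. Without control A, which leaves the high library alone, it was -0.30 (adjusted p = 0.0497).

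**Figure D3:**
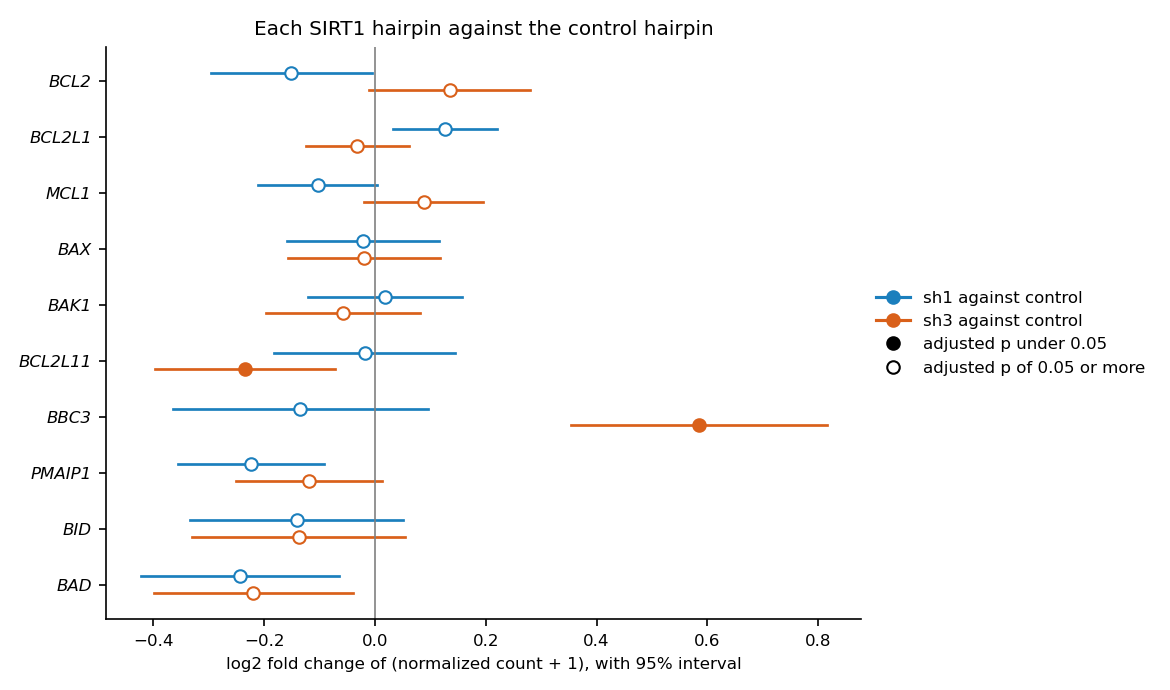
Log2 difference of each SIRT1 hairpin from the control hairpin for the 10 members, with 95% intervals, on the scale of log2(normalized count + 1). Filled points passed an adjusted p under 0.05. Only BBC3 and BCL2L11 with sh3 are filled, at 0.59 and -0.23.

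Of 16 further genes of the family and its mitochondrial relatives, 14 were matched by symbol and 11 were tested. By limma 0 were called for the mean of the hairpins or with sh1, against 12.7% and 6.31% of all genes. With sh3 and between the hairpins 0 were called as well, against 18.6% and 11.4%. At an unadjusted p under 0.05 there were 1 for the mean of the hairpins, 0 with sh1, 3 with sh3 and 0 between the hairpins, against 28.6%, 22.3%, 32.4% and 26% of all genes. BCL2A1 and BCL2L10 were not matched by symbol. The median difference of the 11 was 0.022 for the mean of the hairpins. BCL2L12, a nuclear and cytosolic relative, had the smallest adjusted p, at -0.16 (adjusted p = 0.0888), with 1914 and 1979 normalized counts in the controls and 1677 to 1878 in the 6 hairpin libraries. BCL2L2, the gene for BCL-W, differed by 0.039 (adjusted p = 0.869).

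Among the other BH3-only genes, BMF measured 449 and 407 in the controls and differed by -0.16 (adjusted p = 0.430), and the cell-death genes BIK and HRK were under the minimum mean of 10. The mitophagy receptor BNIP3L differed by 0.066 (adjusted p = 0.311) and BNIP3 by 0.11 (adjusted p = 0.801). BECN1, an autophagy gene with a BH3 domain, differed by 0.020 (adjusted p = 0.813), and the mitochondrial BCL2L13 by 0.086 (adjusted p = 0.292). BNIP1 differed by 0.022 (adjusted p = 0.900) and BNIP2 by -0.12 (adjusted p = 0.223). BOK, another effector-like gene, measured 2.99 in control A and 58.5 in control C, and 1.75 to 32.7 in the hairpin libraries, a spread that leaves its difference unresolved. BCL2L15 ran from 18.4 to 87.5 over the 8 libraries with overlapping groups, and BCL2L14 stayed under the minimum mean.

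**Figure D4:**
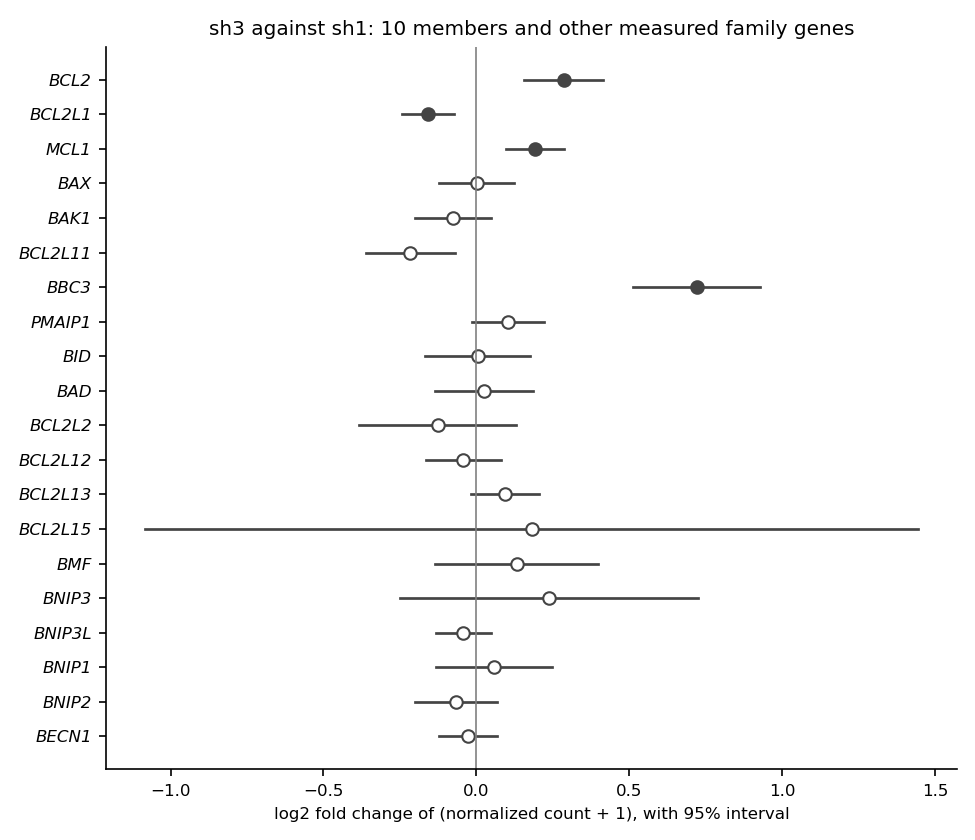
Log2 difference of sh3 from sh1 for the 10 members and 10 further family genes, with 95% intervals. Filled points passed an adjusted p under 0.05: BCL2, MCL1 and BBC3 are higher with sh3 and BCL2L1 is lower. BOK was tested but is left out of the plot because its interval is too wide for the axis.

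Downstream of the mitochondrial pore act the apoptosome and the caspases. Of 16 of their genes tested, 1 rose and 2 fell for the mean of the hairpins (18.8%, against 12.7% of all genes), and 1 rose with sh1 (6.25%, against 6.31%). With sh3 1 rose and 3 fell (25%, against 18.6%), and between the hairpins 4 were lower with sh3 (25%, against 11.4%). In a list of 16 such shares rest on 1 to 4 genes, and the first 3 lie near those of all genes. The median difference of the list was -0.011 for the mean of the hairpins and -0.050 with sh3. Leaving out sh3 C, 1 rose and 1 fell for the mean of the hairpins, and 3 were lower with sh3 than with sh1.

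CYCS, the gene for cytochrome c, measured 9584 and 10679 normalized counts in the controls, 9016, 10304 and 9808 with sh1, and 7314, 6784 and 7247 with sh3. The sh3 libraries lay below all others, and with sh3 CYCS fell by 0.51 ± 0.066 (adjusted p = 0.000492). The difference with sh1 was -0.061 ± 0.066 (adjusted p = 0.638), and that between the hairpins -0.45 ± 0.059 (adjusted p = 0.000586). CASP6, a caspase that cuts lamins, measured 815 and 816 in the controls, 732 to 810.4 with sh1 and 639, 549 and 586 with sh3. With sh3 it fell by 0.47 ± 0.088 (adjusted p = 0.00451), and sh3 differed from sh1 by -0.41 ± 0.078 (adjusted p = 0.00653). The calls of both genes with sh3 and between the hairpins were kept in all 18 alternatives. For the mean of the hairpins the call of CASP6 (adjusted p = 0.0495) was lost in 15 of 18, and that of CYCS (adjusted p = 0.0109) was lost without control C (0.171), without the mean-variance trend (0.0716) and with both hairpins as one group (0.313).

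APAF1, the scaffold of the apoptosome, ran from 1248 to 1636 with overlapping groups and was not called.

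Inhibitors of apoptosis (IAP) proteins bind caspases or act in NF-kB signalling. Of 6 IAP genes tested, 0 were called by limma for the mean of the hairpins, against 12.7% of all genes, or with sh1, against 6.31%. At an unadjusted p under 0.05 there were 3 and 1, against 28.6% and 22.3% of all genes. Past the adjusted threshold 2 rose with sh3 (33.3%, against 18.6%), and 1 was higher with sh3 than with sh1 (16.7%, against 11.4%). BIRC3, the gene for cIAP2, measured 626 and 654 normalized counts in the controls, 554, 707 and 582 with sh1, and 886, 850.5 and 895 with sh3. The sh3 libraries stood above all others, by 0.45 ± 0.101 against control (adjusted p = 0.0103) and by 0.52 ± 0.090 against sh1 (adjusted p = 0.00345). Its call against control was lost without control A (0.0626) or control C (0.0577). XIAP, which binds active caspases and was named after its values were seen, was the other gene that rose with sh3, by 0.34 ± 0.086 (adjusted p = 0.0193), and without sh3 C that was 0.27 (adjusted p = 0.0546), without control A 0.38 (0.0522) and without control C 0.30 (0.144). It was also lost without the trend (0.0759) and with the replicate block (0.0530). Without sh3 C the count with sh3 was again 2, with BIRC2, the gene for cIAP1, at 0.21 (adjusted p = 0.0454) in place of XIAP.

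In the death receptor list, 11 of 12 genes were tested, and 1 fell for the mean of the hairpins and with sh1 (9.09% each, against 12.7% and 6.31% of all genes). With sh3 1 rose and 1 fell (18.2%, against 18.6%), and 1 was higher with sh3 than with sh1 (9.09%, against 11.4%). Without sh3 C, 3 were higher with sh3 than with sh1, the added genes being CFLAR, at 0.33 (adjusted p = 0.0207, against 0.0992 with all libraries), and the TRAIL receptor gene TNFRSF10B, at 0.41 (adjusted p = 0.0389, against 0.0625). TNFSF10, the gene for the death ligand TRAIL, measured 1280.4 and 1515 normalized counts in the controls, 862, 801 and 795 with sh1, and 679.7, 697 and 700.4 with sh3. All 6 hairpin libraries lay below both controls. TNFSF10 fell by 0.77 ± 0.084 with sh1 (adjusted p = 0.000523) and fell by 1.01 ± 0.084 with sh3 (adjusted p = 2.35e-05), to 0.588 and 0.497 of control, and each call was kept in all 18 alternatives.

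FAS, the receptor for FAS ligand, measured 935 and 1052 normalized counts in the controls, 850.1, 957 and 936 with sh1, and 1266, 1297 and 1244 with sh3. The sh3 libraries stood above all others, and sh1 overlapped the controls. FAS rose with sh3 by 0.36 ± 0.078 (adjusted p = 0.00983) and was higher with sh3 than with sh1 by 0.47 ± 0.070 (adjusted p = 0.00119). Its call against control was lost without control A, at 0.27 (adjusted p = 0.0869). CASP8, the initiator that cuts BID, ran from 2274 to 2612 and was not called in any comparison, and neither was its inhibitor CFLAR with all libraries in the model.

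**Figure D5:**
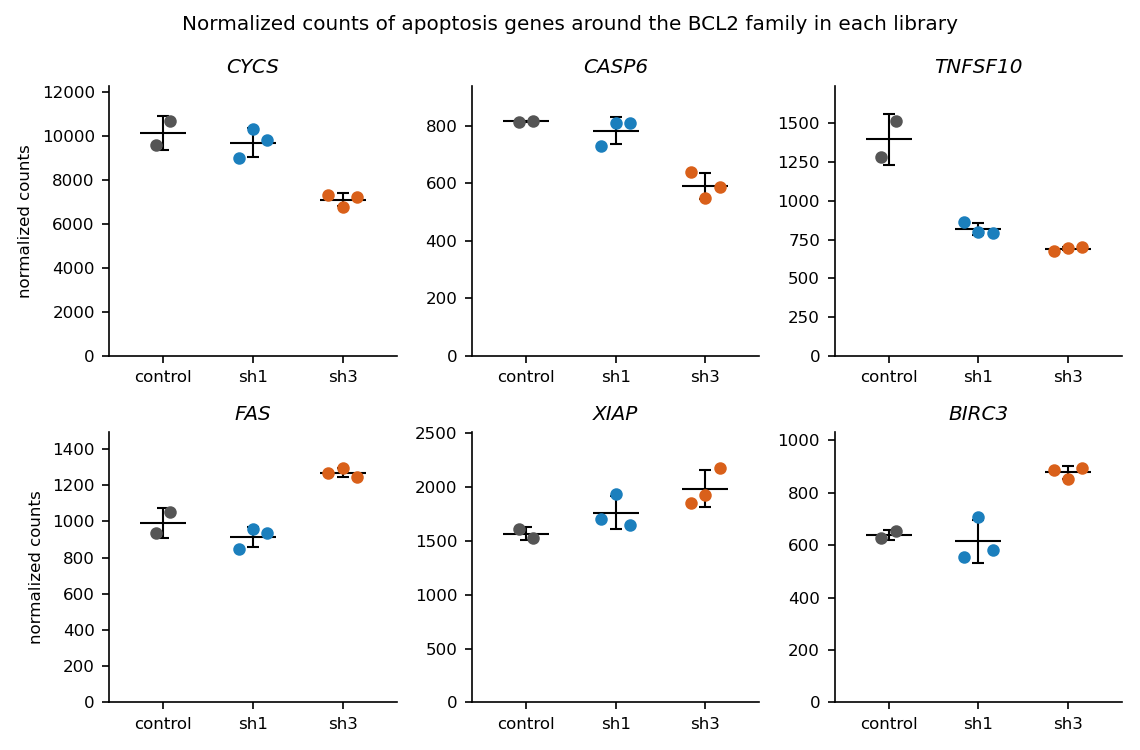
Normalized counts of 6 apoptosis genes outside the 10 members in each library, with a separate axis from 0 for each gene. Points are libraries (control n = 2, sh1 n = 3, sh3 n = 3), long lines the group mean and whiskers the SD. CYCS and CASP6 are lowest and FAS and BIRC3 highest with sh3, and TNFSF10 is lower in all 6 hairpin libraries than in both controls.

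A list of 19 tested genes held transcription factors known to act on family genes and TRIB3, which is not a transcription factor. Of these, 1 rose and 4 fell for the mean of the hairpins (26.3%, against 12.7% of all genes), and 1 rose and 4 fell with sh1 (26.3%, against 6.31%). With sh3 4 rose and 3 fell (36.8%, against 18.6%), and between the hairpins 5 were higher with sh3 and 1 was lower (31.6%, against 11.4%). TRIB3 is among those that fell for the mean of the hairpins and with sh1, and among those higher with sh3 than with sh1. The median difference was 0.062 for the mean of the hairpins. Without sh3 C, 0 rose and 4 fell with sh1, and 3 rose and 2 fell with sh3.

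TRIB3, a pseudokinase induced by stress, measured 3702 and 3960 normalized counts in the controls, 2549.8, 2552 and 2553 with sh1, and 3723, 3908 and 4035 with sh3. With sh1 it fell by 0.59 ± 0.054 (adjusted p = 0.000203) and was higher with sh3 than with sh1 by 0.61 ± 0.048 (adjusted p = 2.04e-05). ATF4, the main factor of the amino acid response, fell by 0.23 ± 0.047 for the mean of the hairpins (adjusted p = 0.00926), with 24628 to 27005 in the 6 hairpin libraries against 29150.0 and 31348 in the controls. MYC fell by 0.37 ± 0.074 (adjusted p = 0.00926), and both calls were lost without control C (0.163 for MYC and 0.148 for ATF4) and without the trend (0.0718 and 0.0639). All 6 hairpin libraries lay below both controls for MYC, at 9334 to 10999 against 12185 and 14681.

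FOXO3, an activator of BCL2L11 and BBC3, was not called for the mean of the hairpins, at -0.048 (adjusted p = 0.586). DDIT3, the gene for CHOP, and FOXO1 were chosen after their values were seen, because their products are known to act on BH3-only genes. DDIT3 rose with sh3 by 0.43 (adjusted p = 0.00433), from 703 and 699 normalized counts in the controls to 989, 979.96 and 878. FOXO1 rose with sh1 by 0.42 (adjusted p = 0.0395), from 279 and 254 to 363, 358 and 344, and it lost that call when any one library was left out (adjusted p of 0.0520 to 0.247).

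Among 20 genes whose products act on the stability, binding or phosphorylation of BCL2 family proteins, 2 rose and 2 fell for the mean of the hairpins (20%, against 12.7% of all genes) and 1 fell with sh1 (5%, against 6.31%). With sh3 4 rose and 4 fell (40%, against 18.6%), and 1 was higher and 5 lower with sh3 than with sh1 (30%, against 11.4%). Without sh3 C, 4 rose and 2 fell for the mean of the hairpins. PIM1, a kinase that phosphorylates BAD, measured 11176 and 12035 normalized counts in the controls, 10284, 10044.5 and 10225 with sh1, and 5451, 5756 and 6435 with sh3. With sh3 it fell by 0.98 ± 0.065 (adjusted p = 4.54e-06), to 0.506 of control, and the difference with sh1 was -0.19 ± 0.065 (adjusted p = 0.118). All 6 hairpin libraries lay below both controls. PIM2, named after its values were seen, went the other way. It rose with sh3 by 0.52 (adjusted p = 0.00667), a call lost without control C. For the mean of the hairpins PIM2 rose by 0.40 (adjusted p = 0.0195), a call lost in 5 of 18 alternatives.

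BAG1, a cochaperone that binds BCL2, fell by 0.48 ± 0.069 for the mean of the hairpins (adjusted p = 0.00163), from 1733 and 2018 in the controls to 1177 to 1534, and lost its call with both hairpins as one group (0.0544). MARCH5, a ubiquitin ligase that acts on MCL1 and NOXA, rose by 0.28 ± 0.067 (adjusted p = 0.0191), from 1726 and 1660 to 1853 to 2277, and lost its call without control A (0.0699) or control C (0.176), without the trend (0.0761) and with both hairpins as one group (0.0703). FBXW7, a ubiquitin ligase of MCL1 chosen after its values were seen, rose with sh3 by 0.32 (adjusted p = 0.00538), and for the mean of the hairpins its adjusted p was 0.0510.

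Markers of T-cell identity moved with the hairpins. Of 8 tested, 1 rose and 7 fell for the mean of the hairpins (100%, against 12.7% of all genes), 6 fell with sh1 (75%, against 6.31%), 1 rose and 7 fell with sh3 (100%, against 18.6%), and 1 was higher and 4 lower with sh3 than with sh1 (62.5%, against 11.4%). Without sh3 C, 4 were again lower between the hairpins, and RAG1, the higher one, lost its call, going from 0.15 (adjusted p = 0.0310) to 0.14 (0.0926). Their summed level was 127580 to 128420 in the controls, 121210 to 125450 with sh1 and 120490 to 122670 with sh3. CD7 fell by 0.61 ± 0.056 for the mean of the hairpins (adjusted p = 8.9e-05, and 0.0656 with both hairpins as one group), CD1A fell to 0.499 of control (adjusted p = 0.000121) and CD3D fell by 0.45 ± 0.048, and CD3G differed between sh3 and sh1 by -0.49 ± 0.044. CD79A differed between the hairpins: it fell by 0.43 with sh1 (adjusted p = 0.000991), stood at -0.059 with sh3 (adjusted p = 0.480), and was higher with sh3 than with sh1 by 0.37 (adjusted p = 0.000419). For the mean of the hairpins it fell by 0.25 ± 0.047 (adjusted p = 0.00728), a call lost without control C (0.125), without the trend (0.0578) and with both hairpins as one group (0.293). NKG7, a cytotoxic granule gene, was higher with sh3 than with sh1 by 0.30 ± 0.080 (adjusted p = 0.0331), a call lost without sh1 A, sh1 B or any sh3 library (0.0743 to 0.102). The B-cell gene PAX5 stood at 0 to 5.49 normalized counts and the erythroid gene HBB at 0 to 6.41. The part of these shifts in the values of the BCL2 family was not tested.

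PMAIP1 had the smallest p of the members for the mean of the hairpins, and 3 genes had the pattern most like it. Pearson coefficients of log2(normalized count + 1) over the 8 libraries were compared for 11398 other genes with a mean of at least 50. The highest were 0.985 for S100A11, 0.967 for RPL13 and 0.966 for REX1BD. The libraries share their groups, so these coefficients describe likeness in 8 points and carry no test.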

How the data were processed

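Libraries of DND41 RNA kept the strand, per the labels' protocols. The authors deposited 1 table with a signal for each gene symbol, in counts normalized by DESeq. Tools in the submitters' processing notes are kallisto 0.44.0 and DESeq, and the build is hg38. The annotation, the way transcripts became genes, any filter and the use of strand in counting were not given in the sources used here. Whole reads were not recovered, since at most 42.6% of the low values of a library lay within 0.02 of a whole multiple, so the depth is unknown and no count test was used.

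Genes whose mean over the 8 libraries reached 10 were tested on log2(value + 1), 13885 in all, and 4248 rows were left out. Fold changes on that scale understate the change of low genes. One limma 3.58.1 model in R 4.3.3 held the 3 group means, with 5 residual degrees of freedom and a mean-variance trend. Tests were two-sided, adjusted by the Benjamini-Hochberg method over all genes tested, and called at an adjusted p under 0.05, and ± is the SE of a difference or the SD of a level. The procedure was tested on simulated data. Each result was recomputed under 18 alternatives. The 10 members, the gene lists and the tests were chosen with earlier results of these data known. The text names the members, the other family genes, SIRT1 and, from each other list, the 3 called genes with the smallest p for the mean of the hairpins and the one with the smallest p between the hairpins. Other genes (XIAP, BIRC2, APAF1, CASP8, CFLAR, TNFRSF10B, FOXO1, FOXO3, DDIT3, PIM2, FBXW7, RAG1 and the markers CD3E, CD2, PAX5 and HBB) were named outside this rule after their values were seen. Some genes that the rule took, 1 list and 1 promoter motif are not reported here, and the counts of the other lists include such genes. Coordinates are from GENCODE 29 (GRCh38, which is hg38), and promoters from RefSeq on GRCh38.p14. No control library B was analysed here.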

Additional observations from a re-analysis of the deposited data

Results flagged for a closer look

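The effects of the hairpins on 4 members differed by a test of the difference itself, sh3 against sh1 in the shared limma model. The log2 difference was 0.29 for BCL2, -0.16 for BCL2L1, 0.19 for MCL1 and 0.72 for BBC3, with adjusted p of 0.00993, 0.0204, 0.0161 and 0.000547. In each of the 4 genes every sh3 library lay on the same side of every sh1 library. The same held for BCL2L11, which was not called (adjusted p = 0.0594). The 4 genes were picked by a test on these same libraries, so their separation is no further support. The share of all genes with such a separation was not counted. SIRT1 itself was lower in every sh3 library than in every sh1 library, with a difference of -0.16 on the log2 scale (adjusted p = 0.135). Whether the difference in SIRT1 bears on these 4 genes was not tested.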

How the results depend on the processing

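The depth is unknown, so no counting limit can be given, and the control group of 2 libraries limits every comparison with control. No result on a member changed direction while past the threshold. In calls over all genes, the 1768 genes of the mean of the hairpins became 744 without the mean-variance trend and 394 with both hairpins as one group, and ran from 339 to 1898 when 1 library was left out. The 876 of sh1 became 236 without the trend, 462 with only the groups compared and 549 with a replicate block, and ran from 159 to 782. The 2576 of sh3 became 1531 without the trend and ran from 860 to 2931. The 1589 between the hairpins became 968 without the trend and ran from 925 to 1770. The lowest counts against control came without control C.

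Members called for the mean of the hairpins went from 0 to 1 with a minimum mean of 50, with quantile normalization and with array weights (PMAIP1 in each), and from 0 to 1 when 1 library was left out (PMAIP1 without sh1 C, BID without control A). With sh1 the count went from 0 to 1, PMAIP1, with a pseudocount of 5, a minimum mean of 50, quantile normalization and array weights, and ran from 0 to 1 when 1 library was left out. With sh3 the count of 2 became 1, BBC3, without a filter on low values, with median centring and without the trend. It was also 1, BBC3, with array weights, with only the groups compared and with the replicate block. When 1 hairpin library was left out it was 1 or 2. Leaving out a control leaves 1 library in that group. Without control A, BID (-0.30) passed in place of BCL2L11, and without control C neither BBC3 nor BCL2L11 passed. Between the hairpins the count of 4 became 1, BBC3, without the trend and 5 with array weights, which added BCL2L11. It ran from 2 to 4 when 1 library was left out. Without sh3 A the 4 held BCL2L11 in place of BCL2L1. The cause was not tested.

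The letters in the titles gave no sign of pairing. Deviations of same-lettered libraries from their group means correlated at -0.062 to 0.058, and those of differently lettered libraries at -0.058 to 0.060. Deviations within so small a group are tied to each other, so this check cannot exclude pairing. With the letter as a replicate block, 1292 genes were called for the mean of the hairpins, 549 with sh1, 2071 with sh3 and 1495 between the hairpins. The members called were 0, 0, 1 and 4 for the mean of the hairpins, sh1, sh3 and sh3 against sh1.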
